A study of Sus scrofa with 24 samples.

Results

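The net change of gene expression over an 8-day adipogenic culture was compared between pig preadipocytes of 2 depots, subcutaneous back fat (BF) and the intramuscular fat (IMF) inside longissimus dorsi, a muscle along the spine. The groups compared were BF-0d, BF-8d, IMF-0d and IMF-8d, cells of each depot before induction (day 0) and on day 8, with 3 libraries per group. These are 12 of the 24 RNA libraries in the series. The other 12 (days 2 and 4) served for a separate look at the time course, a filter on low values and an alternative fit. The cells were primary cultures from 6-day-old Yorkshire piglets and were unmodified, and the day 0 groups were taken before induction, while the day 8 groups of both depots had gone through the same sequence of media. Induction used IBMX, which blocks phosphodiesterases and so raises cyclic AMP, dexamethasone, a glucocorticoid, and insulin. Insulin alone came next and plain growth medium last, so cells on day 8 had been without the inducers for some days. Per the study's methods, muscle tissue was digested for longer and with more collagenase than back fat, so this step and the depot cannot be told apart. A primary culture of this kind holds whichever adherent stromal cells the digested tissue gave, and neither the labels nor the methods tie a replicate number to a piglet, so the spread between libraries may be partly technical.

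Preadipocytes are fibroblast-like precursors. On differentiation they are known to lose actin stress fibres and fibrillar matrix, to switch on the transcription factors PPARG and CEBPA, and to store triglyceride in droplets coated with perilipins. Subcutaneous fat is laid down early in pigs, whereas intramuscular fat, the marbling of meat, is laid down late between muscle fibres among fibroblasts and vessels. In culture the question is which parts of the programme run further in cells of one depot than in those of the other.

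Values were FPKM, a fragment count scaled to the length of the gene and to the size of the library. The net change of a gene is the mean log2(FPKM + 1) on day 8 minus that on day 0. The interaction is the net change in IMF minus the net change in BF, so a positive interaction means that the gene rose more, or fell less, in IMF. A call required an absolute log2 difference of at least 1 and a p-value from limma that stayed under 0.01 after Benjamini-Hochberg adjustment. All log2 differences below are on the log2(FPKM + 1) scale, which understates changes of genes with low values. In bulk libraries, fewer cells of a type and less RNA per cell cannot be told apart.

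The libraries of a group correlated at 0.987 or higher, except those of BF-8d, which correlated at 0.969 to 0.988. BF-8d replicate 1 stood apart from the other 2 BF-8d libraries in interferon-stimulated genes, and results that rest on it are given with and without it. Of 12 skeletal muscle markers, 11 stayed under 1 FPKM in all 12 libraries, and the muscle regulators MYOD1, MYF5 and PAX7 were listed at 0 in all of them. The leukocyte marker PTPRC averaged at most 0.000541 FPKM, and the endothelial marker CDH5 had means of at most 0.0647 FPKM in any group. Other markers of both lists were expressed. Under 1 FPKM in all 12 libraries were 6 of 10 immune markers and 5 of 8 endothelial markers measured. The immune markers summed to 227 to 247 FPKM in BF-8d and 277 to 372 in IMF-8d. The endothelial markers summed to 10.7 to 11.3 FPKM in BF-0d, 4.48 to 9.69 in BF-8d, 7.36 to 9.44 in IMF-0d and 8.13 to 17.3 in IMF-8d. Mature adipocyte markers were divided on day 8. Adiponectin (ADIPOQ) and perilipin 1 (PLIN1) stayed under 0.1 FPKM in all 12 libraries and PPARG averaged 0.973 FPKM in BF-8d and 0.123 FPKM in IMF-8d. Of 12 adipocyte markers, 2 were abundant on day 8. Lipoprotein lipase (LPL), which releases fatty acids from circulating lipid, averaged 422 FPKM in BF and 120.4 FPKM in IMF. Adipsin (CFD, complement factor D), which adipocytes secrete, averaged 280.0 FPKM in BF and 30.04 FPKM in IMF. The day 8 cells are called induced cells of a depot here.

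Of 16135 genes tested, 1047 (6.49%) had a called interaction. The interaction was positive for 619 genes (3.84%) and negative for 428 (2.65%), and without BF-8d replicate 1 the split was 673 positive and 695 negative. More genes changed over the culture in BF, where 2168 were called (13.4%; 968 rose and 1200 fell), than in IMF, where 1470 were called (9.11%; 743 rose and 727 fell). Under median ratio scaling the BF split became 1214 risen and 894 fallen, and the calls on day 8 split into 554 higher and 541 lower in IMF in place of 714 and 409. Depots differed at 449 genes on day 0 (2.78%; 316 or 1.96% higher in IMF and 133 or 0.824% lower) and at 1123 on day 8 (6.96%; 4.43% higher and 2.53% lower). Without BF-8d replicate 1 the depots differed at 1390 genes on day 8, 755 higher and 635 lower in IMF. With a pseudocount of 0.1 in place of 1, the calls became 4002 in BF, 2606 in IMF, 909 on day 0 and 2334 on day 8.

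Most called interactions came from a change that was called in a single depot. Of the 1047 genes, 466 (44.5%) changed in BF alone and 195 (18.6%) in IMF alone, 201 (19.2%) changed in the same direction in both depots to a different extent, and 9 changed in opposite directions. For the other 176, neither net change was called by itself. Among the 619 positive interactions, the most frequent kind was a fall in BF with no called change in IMF, which held for 247 genes, followed by a rise in IMF alone for 139. Among the 428 negative ones, a rise in BF alone held for 219 genes. A change called in a single depot was mostly not shown to differ between depots. Of 1237 genes called in BF and not in IMF, 466 (37.7%) had a called interaction, and of 539 called in IMF and not in BF, 195 (36.2%) had one. The direction of change was otherwise shared, since 922 of the 931 genes called in both depots moved the same way.

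**Figure D1:**
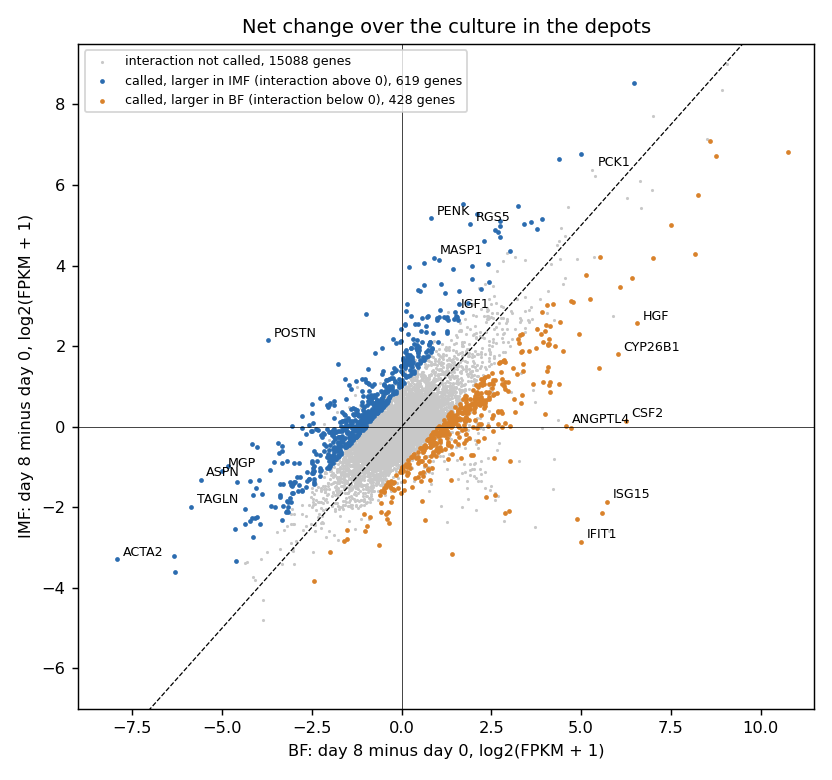
Net change from day 0 to day 8 in BF (x axis) against that in IMF (y axis), both on log2(FPKM + 1), for the 16135 genes tested. Blue points are the 619 genes with a called positive interaction, orange points the 428 with a called negative interaction, and the dashed line marks equal change. ACTA2 and TAGLN fell in both depots and lie above the line, POSTN fell in BF and rose in IMF, and ANGPTL4 and CSF2 rose in BF with IMF near 0.

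Most contractile genes of the myofibroblast fell in both depots, and 8 of 17 had a called positive interaction. Of 17 genes of actin stress fibres and smooth muscle type contraction tested, 15 fell in BF and 15 fell in IMF, against 7.44% and 4.51% of all genes tested. Their interaction was called positive for 8 and negative for 1, against 3.84% and 2.65% over all genes. The median was 0.58, against 0.01 over all genes. Smooth muscle actin ACTA2 (ENSSSCG00000010447, chr14:100868145-100886732 in Sscrofa11.1) was at 1550.4, 1609 and 1641 FPKM in BF-0d and 12.1, 3.57 and 3.86 FPKM in BF-8d, and at 1698, 1841 and 2128 FPKM in IMF-0d and 184, 189.9 and 199.6 FPKM in IMF-8d. Both depots started at a similar height, all day 8 libraries lay below all day 0 libraries, and the IMF-8d libraries lay above those of BF-8d without overlap. Net changes were -7.92 ± 0.30 in BF and -3.29 ± 0.30 in IMF, and the interaction was 4.63 ± 0.43 (SE, adjusted p = 2.02e-05). The actin-binding protein transgelin, TAGLN (ENSSSCG00000015073, chr9:44561756-44567385), went from 691, 727 and 741 to 14.4, 9.62 and 10.7 FPKM in BF and from 1078, 1093 and 1379 to 282, 245 and 377 FPKM in IMF. Its order of groups was that of ACTA2, with an interaction of 3.87 ± 0.24 (SE, adjusted p = 3.73e-07). The interaction was 3.13 for ACTG2 (smooth muscle gamma actin), 1.90 for LMOD1 (leiomodin, which nucleates actin filaments), 1.38 for MYL9 (the regulatory light chain of myosin) and 1.29 for TPM1 (tropomyosin). When all 24 libraries were fitted together, 5 of these genes kept a called positive interaction and 0 a negative one, and the calls of MYL9, TPM1, CALD1 and DES were lost.

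Desmin (DES), the intermediate filament of muscle cells, was the contractile gene with a negative interaction, at -1.39 ± 0.21 (SE, adjusted p = 0.000536). It fell from a mean of 4.68 to 0.0556 FPKM in BF and from 37.04 to 1.68 FPKM in IMF. Its sign depended on the pseudocount and became 0.57 with a pseudocount of 0.1. DES also made up most of the summed skeletal muscle markers on day 0, which were 4.59 to 4.91 FPKM in BF-0d, 0.103 to 0.154 in BF-8d, 29.7 to 45.4 in IMF-0d and 1.38 to 2.25 in IMF-8d.

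Contractile genes are textbook targets of serum response factor, which binds the CArG box near their starts. A CArG box lay within 250 bases upstream of the RefSeq gene start in 4 of 17 genes of this list (TAGLN, CNN2, MYL9 and VCL), 2 of them among the 9 with a called interaction, and in 1.31% of 19278 promoters of the same length. The window of MYL9 (chr17:39787915-39788164, plus strand), a member with a called interaction, is printed 5′ to 3′ from the RefSeq annotation of Sscrofa11.1, up to the base before the gene start, with the match in capitals, which begins 70 bases upstream of the start.
MYL9: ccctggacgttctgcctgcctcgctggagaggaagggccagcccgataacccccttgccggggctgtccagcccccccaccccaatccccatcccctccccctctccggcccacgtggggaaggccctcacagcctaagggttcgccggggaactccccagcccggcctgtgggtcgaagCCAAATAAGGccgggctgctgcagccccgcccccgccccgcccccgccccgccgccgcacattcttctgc
A match to the letters is a description of the window and not evidence of binding.

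Matrix genes had more positive than negative interactions too. Of 25 matricellular and elastic fibre genes tested, 13 had a called positive and 3 a called negative interaction, against 3.84% and 2.65% over all genes, with a median of 1.03. In the fit of all 24 libraries the counts were 10 and 2. The microfibril proteins MFAP5 (3.86) and MFAP4 (2.22) and elastin (ELN, 2.55) fell in BF and fell less, or had no called change, in IMF, whereas fibulin 1 (FBLN1) rose in both depots and further in IMF (1.76). Matrix Gla protein MGP, an inhibitor of calcification, was at 123, 135 and 160.3 FPKM in BF-0d and fell to 7.71, 2.405 and 1.82 FPKM in BF-8d, whereas it was at 174, 239 and 208 FPKM in IMF-0d and 129, 72.2 and 93.4 FPKM in IMF-8d. The IMF-8d libraries lay below IMF-0d and far above BF-8d, and the interaction was 3.90 ± 0.51 (SE, adjusted p = 0.000347).

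Periostin (POSTN, ENSSSCG00000009361, chr11:13225183-13258973), a matricellular protein that promotes collagen crosslinking, had the most positive interaction among named genes, at 5.86 ± 0.30 (SE, adjusted p = 1.09e-07). It fell from 161, 171 and 189.9 to 17.4, 8.88 and 11.8 FPKM in BF and rose from 20.4, 24.2 and 15.7 to 77.1, 111 and 87.6 FPKM in IMF. The depots thus exchanged places, with BF higher on day 0 and IMF higher on day 8 and no overlap on either day (log2 differences of -3.07 and 2.79, both called). Thrombospondin 2 (THBS2) also moved in opposite directions, falling by 1.03 in BF and rising by 1.19 in IMF. Tenascin C (TNC), a matricellular protein of remodelling tissue, went against the list. It rose from a mean of 76.4 to 812 FPKM in BF and from 404 to 1049 FPKM in IMF, so the depot difference was 2.38 (log2) on day 0 and 0.36 on day 8, and the interaction was -2.02 ± 0.15 (SE, adjusted p = 1.88e-06).

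Among small leucine-rich proteoglycans, which bind collagen fibrils and growth factors, 3 of 11 had a called interaction, all positive (3.84% over all genes). Asporin (ASPN, ENSSSCG00000008072, chr3:42165553-42192902) was at 449, 494 and 492 FPKM in BF-0d and 12.9, 5.39 and 10.1 FPKM in BF-8d, and at 204, 239 and 180.2 FPKM in IMF-0d and 80.1, 92.1 and 75.3 FPKM in IMF-8d. It began higher in BF and ended higher in IMF, each without overlap, with an interaction of 4.27 ± 0.31 (SE, adjusted p = 1.47e-06). Osteoglycin (OGN) and decorin (DCN) followed at 2.60 and 1.28. Of 19 collagen genes, 4 were called positive (COL14A1 2.64, COL11A1 1.54, COL1A1 1.19 and COL1A2 1.09) and 2 negative (COL18A1, a basement membrane collagen, -1.47, and COL5A3 -1.60), against 3.84% and 2.65% over all genes. COL1A1, the main chain of type I collagen, fell from a mean of 5753 ± 368 to 845 ± 70.8 FPKM (SD, n = 3) in BF and from 6135 ± 332 to 2062 ± 254 FPKM in IMF. Connective tissue growth factor (CCN2), a target of TGF-beta and YAP, fell in both depots and by more in BF (net changes -6.32 ± 0.21 in BF and -3.61 ± 0.21 in IMF, interaction 2.70). When all 24 libraries were fitted together, the calls of COL1A1, COL18A1, COL5A3 and CCN2 were lost, and those of POSTN, MGP, TNC and ASPN were not.

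Tendon markers and pericyte markers were divided. The interaction was above 0 for 4 of 7 tenocyte markers (median 0.29) and for 3 of 7 pericyte markers (median -0.22). Of 7 tenocyte markers 3 had a called positive interaction (TNMD, THBS4 and MKX), against 3.84% over all genes, and their summed level was 435 to 458 FPKM in BF-0d, 549.8 to 689 in BF-8d, 966 to 1158 in IMF-0d and 1910 to 2088 in IMF-8d. The tendon transcription factor SCX averaged at most 0.409 FPKM in any group. Of 7 pericyte markers 2 were called positive (RGS5 and ABCC9) and 1 negative (CSPG4), against 3.84% and 2.65% over all genes. The fit of all 24 libraries left 1 positive call. The sum of the pericyte markers was 148 to 172 FPKM in BF-0d, 192 to 217 in BF-8d, 117 to 136 in IMF-0d and 182 to 195 in IMF-8d. The part of such cells in the differences was not tested.

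**Figure D2:**
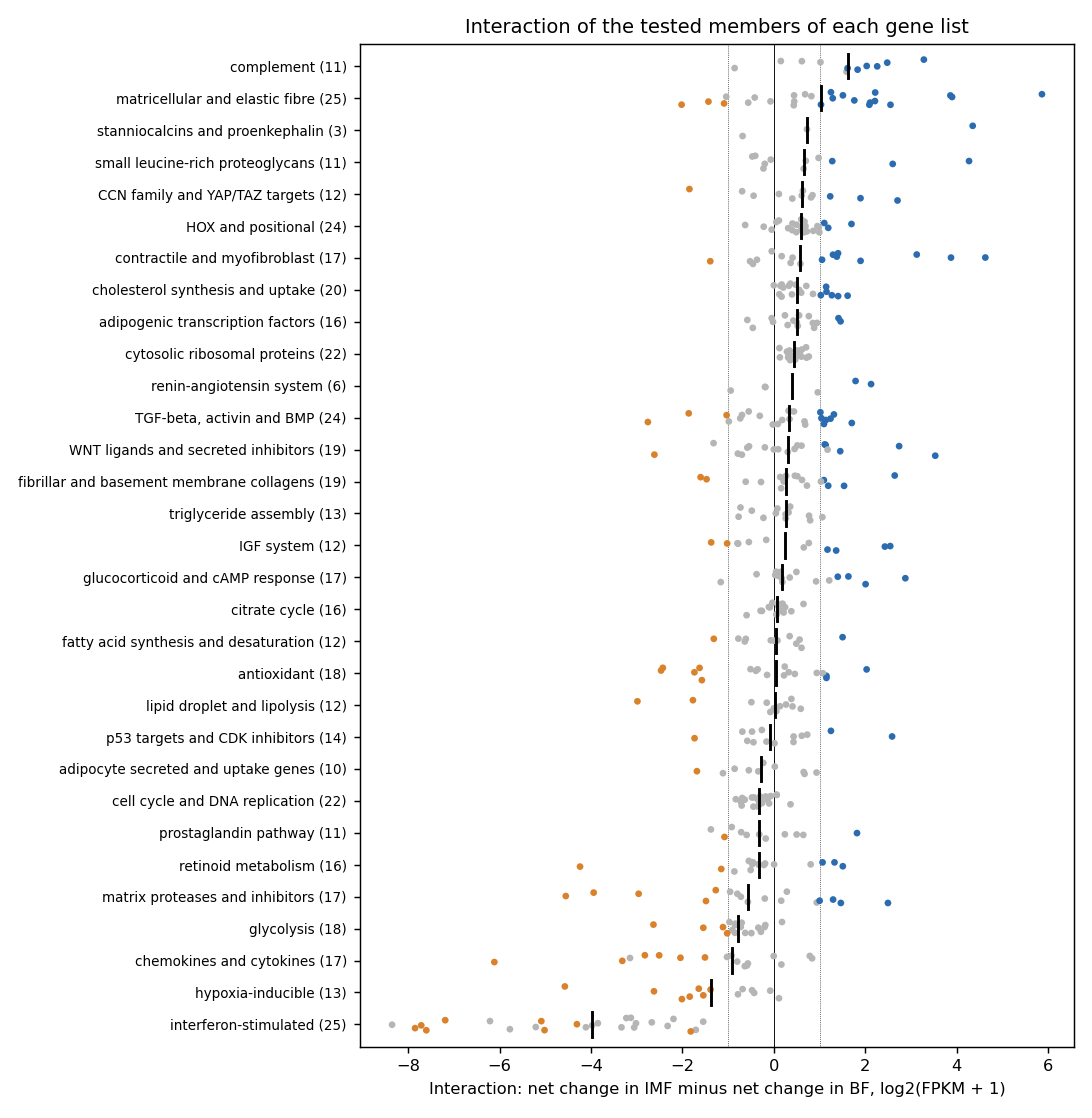
Interaction (net change in IMF minus net change in BF, log2(FPKM + 1), x axis) of each tested gene in 31 gene lists, with the number tested in parentheses. Blue and orange points are called positive and negative interactions, grey points were not called, black bars are medians and dotted lines mark a log2 difference of 1. Complement and matricellular lists have medians above 1, and the hypoxia-inducible list a median of -1.38.

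Secreted regulators of WNT, TGF-beta and IGF signalling were divided. Of 19 WNT ligands and secreted inhibitors, 5 were called positive and 1 negative (5 and 3 without BF-8d replicate 1), against 3.84% and 2.65% over all genes. The inhibitors SFRP4 and SFRP2, which bind WNT outside the cell, fell in BF and had no called change in IMF. SFRP4 went from 83.1, 79.3 and 88.7 to 5.31, 3.66 and 3.66 FPKM in BF and from 120.2, 99.7 and 126 to 81.02, 70.2 and 91.7 FPKM in IMF, and the IMF-8d libraries lay above all of BF-8d. Interactions were 3.53 ± 0.20 (SE, adjusted p = 2.06e-07) for SFRP4 and 2.74 ± 0.21 (SE, adjusted p = 2.39e-06) for SFRP2. The ligand WNT5A, which acts largely outside the beta-catenin branch, went the other way. It rose from 1.06, 1.01 and 1.18 to 145, 129 and 145 FPKM in BF and from 0.963, 0.547 and 0.546 to 18.4, 19.4 and 14.9 FPKM in IMF. It rose in both depots to non-overlapping heights, with an interaction of -2.61 ± 0.17 (SE, adjusted p = 7.64e-07). The fit of all 24 libraries left 2 calls in the list, both positive, and WNT5A was not called there.

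Of 24 genes of the TGF-beta, activin and BMP family, 7 were called positive and 3 negative, against 3.84% and 2.65% over all genes. Follistatin (FST), which traps activin, and the BMP antagonist GREM1 rose more in IMF, with interactions of 1.70 and 1.24. The ligands TGFB2 and GDF15 rose more in BF, with interactions of -2.76 and -1.86. TGFB2 was at 103, 43.6 and 77.6 FPKM in BF-8d against 14.1, 15.5 and 12.1 FPKM in IMF-8d, from means of 6.08 and 8.98 FPKM on day 0. The BF-8d libraries spread widely and all lay above IMF-8d. In the IGF system 4 of 12 genes were called positive and 2 negative (3 and 1 without IMF-0d replicate 1 or without IMF-8d replicate 1). IGFBP4, a carrier that holds IGF away from its receptor, rose from a mean of 51.4 ± 5.23 to 112 ± 6.66 FPKM in BF and from 47.8 ± 7.35 to 565 ± 72.8 FPKM in IMF. Its interaction was 2.43 ± 0.19 (SE, adjusted p = 2.26e-06). IGF1 itself rose from 16.4, 13.3 and 14.2 to 37.3, 55.9 and 37.8 FPKM in BF and from 18.6, 17.8 and 14.2 to 118, 144 and 122 FPKM in IMF. The depots overlapped on day 0 and did not overlap on day 8, and the interaction was 1.36 ± 0.23 (SE, adjusted p = 0.000881). In the fit of all 24 libraries the TGF-beta list had 2 positive and 2 negative calls and the IGF list 2 positive ones, and those of FST, GREM1, GDF15 and IGF1 were lost.

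Of 11 complement genes tested, 6 had a called positive interaction and 0 a negative one (3.84% and 2.65% over all genes), with a median of 1.61. The count was 5 to 7 when each library was left out in turn and 4 in the fit of all 24 libraries, where C3 was not called. MASP1 (ENSSSCG00000011806, chr13:124938469-125028440), a serine protease of the lectin pathway, was at 57.1, 58.4 and 55.5 FPKM in BF-0d and 118, 89.8 and 118 FPKM in BF-8d, and rose from 4.33, 4.77 and 4.68 FPKM in IMF-0d to 99.4, 103 and 100.1 FPKM in IMF-8d. IMF libraries were far below BF on day 0 and inside the BF range on day 8. The interaction was 3.28 ± 0.15 (SE, adjusted p = 6.08e-08). C3, the central component of the cascade, rose from 4.26, 3.601 and 3.38 to 55.95, 167 and 102 FPKM in BF and from 0.745, 0.843 and 0.714 to 173, 174 and 183 FPKM in IMF. It rose in both depots from a lower start in IMF, to values that all lay above those of BF-8d, with an interaction of 2.26 ± 0.39 (SE, adjusted p = 0.00131). Factor B (CFB) of the alternative pathway had an interaction of 2.48, C4A of the classical pathway 1.83 and clusterin (CLU), an inhibitor of the terminal complex, 2.03.

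Some genes rose in IMF to heights that BF did not reach. Proenkephalin (PENK, ENSSSCG00000006243, chr4:75525497-75530403), the precursor of opioid peptides, was at 0.131, 0.198 and 0.0847 FPKM in BF-0d, 1.32, 0.892 and 0.8498 FPKM in BF-8d, 1.22, 0.816 and 1.17 FPKM in IMF-0d and 66.4, 70.3 and 84.2 FPKM in IMF-8d. Only the IMF-8d libraries were high. Net changes were 0.82 ± 0.13 in BF and 5.17 ± 0.13 in IMF and the interaction was 4.35 ± 0.18 (SE, adjusted p = 1.96e-08). RASL11B, a small GTPase of the RAS superfamily, rose from a mean of 3.79 ± 0.502 to 32.3 ± 3.21 FPKM in IMF and was at 7.44 ± 0.348 and 3.28 ± 0.845 FPKM in BF, with an interaction of 3.80 ± 0.20 (SE, adjusted p = 1.23e-07). RGS5, a regulator of G protein signalling that marks pericytes, reached 68.4, 83.8 and 56.7 FPKM in IMF-8d against 6.55, 1.89 and 1.85 FPKM in BF-8d. Its interaction was 3.11 ± 0.44 (SE, adjusted p = 0.000377), and it was not called with a pseudocount of 0.1, where the estimate was 1.49.

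Genes that answer to cyclic AMP and glucocorticoid had 4 called positive interactions among 17, against 3.84% over all genes, and 0 negative ones (1 without BF-8d replicate 1). The orphan nuclear receptor NR4A1 was at 7.72, 7.99 and 9.03 FPKM in BF-0d and 16.7, 11.9 and 11.9 FPKM in BF-8d, and rose from 4.92, 3.003 and 3.96 to 49.6, 52.3 and 63.4 FPKM in IMF. The IMF-8d libraries stood above all others, and the interaction was 2.88 ± 0.23 (SE, adjusted p = 2.88e-06). HSD11B1, the enzyme that regenerates active glucocorticoid, rose from a mean of 2.56 to 22.8 FPKM in IMF and from 1.503 to 3.22 FPKM in BF, with an interaction of 2.01 ± 0.25 (SE, adjusted p = 8.95e-05).

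**Figure D3:**
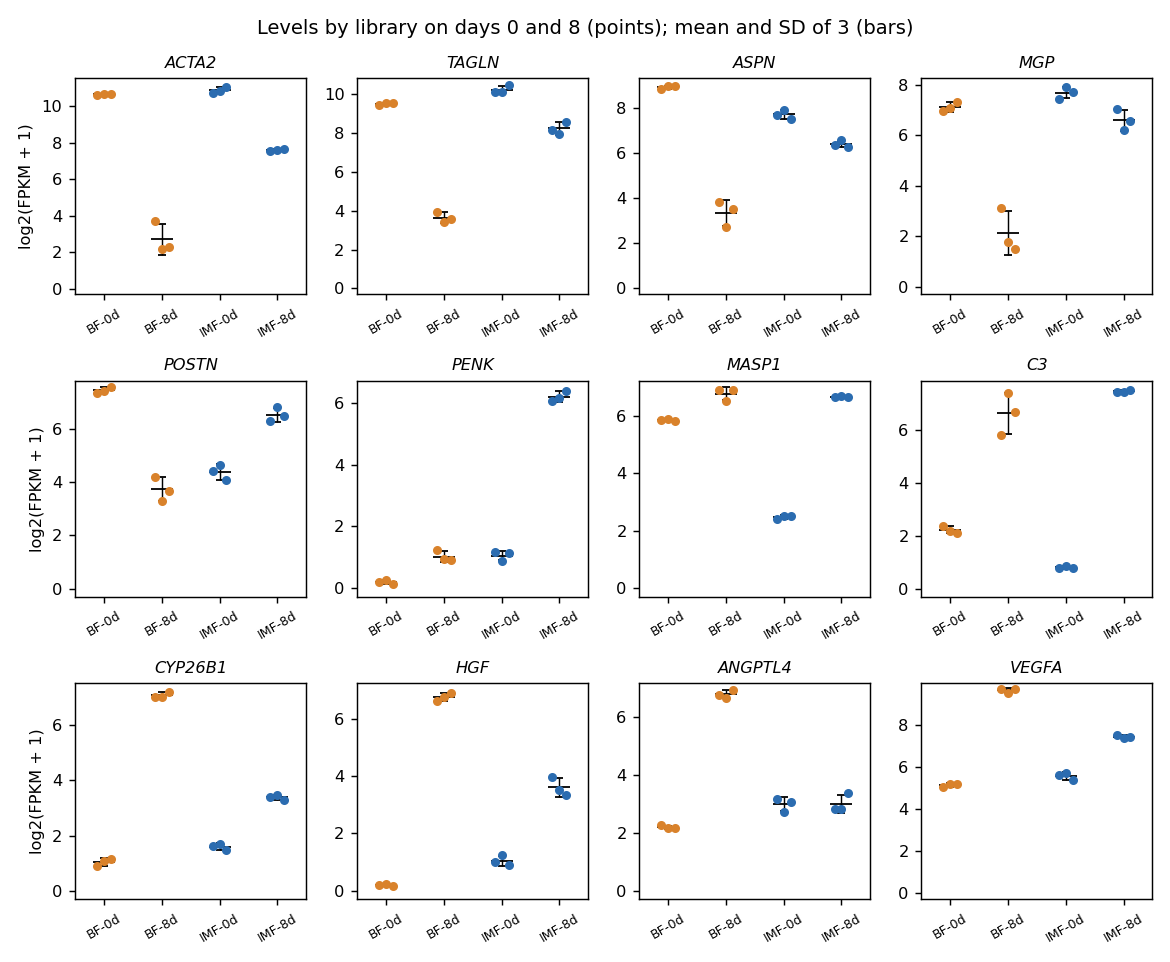
log2(FPKM + 1) of 12 genes in the 3 libraries (points) of BF-0d, BF-8d, IMF-0d and IMF-8d, with mean and SD (bars). ACTA2, TAGLN, ASPN and MGP fell further in BF, PENK was high in IMF-8d alone, MASP1 in IMF-8d reached the level of BF, and CYP26B1, HGF, ANGPTL4 and VEGFA rose further in BF.

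More genes induced by low oxygen, and more genes of glycolysis, rose in BF than in IMF. Of 13 hypoxia-inducible genes tested, 7 had a called negative interaction and 0 a positive one, against 2.65% negative over all genes, and the median was -1.38. In BF 9 of them rose, and in IMF 5. Angiopoietin-like 4 (ANGPTL4, ENSSSCG00000013599, chr2:70905767-70912892), a secreted inhibitor of lipoprotein lipase, rose from 3.75, 3.46 and 3.43 to 108, 98.2 and 119 FPKM in BF and was at 8.000, 5.53 and 7.38 and 5.98, 6.08 and 9.29 FPKM in IMF. The BF-8d libraries stood alone above the other 9, and the interaction was -4.57 ± 0.22 (SE, adjusted p = 7.81e-08). The angiogenic factor VEGFA rose from 31.9, 36.2 and 36.1 to 842, 749 and 842 FPKM in BF and from 47.9, 52.1 and 40.9 to 185, 168 and 173 FPKM in IMF. It rose in both depots to heights that did not overlap, with an interaction of -2.62 ± 0.15 (SE, adjusted p = 2.18e-07). EGLN3, an oxygen-sensing hydroxylase, had an interaction of -2.01, and DDIT4, an inhibitor of mTOR, of -1.84. The hypoxia response element core ACGTG was found, on either strand, within 250 bases upstream of 5 of the 12 of these genes with a RefSeq promoter and of 18.8% of all promoters.

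In glycolysis 14 of 18 genes rose in BF (6% of all genes rose there) and 4 in IMF (4.6%). The interaction was called for 4, all negative (2.65% negative over all genes), with a median of -0.78. These were the lactate exporter SLC16A3 (-2.63), hexokinase HK2 (-1.54), lactate dehydrogenase LDHA (-1.11) and enolase ENO1 (-1.02). LDHA rose from a mean of 269.7 ± 7.61 to 1226 ± 117 FPKM in BF and from 538 ± 19.2 to 1127 ± 37.6 FPKM in IMF. IMF began higher and the depots were close on day 8. The ENO1 call was lost in 3 of the 12 leave-one-out fits, and the calls of ENO1 and HK2 in the fit of all 24 libraries. In the citrate cycle limma called 0 of 16 interactions (6.49% over all genes), 2 of them with an unadjusted p under 0.05, and the median was 0.08.

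Among 12 lipid droplet and lipolysis genes, PLIN2 and HILPDA were called, both negative (16.7%, against 2.65% negative over all genes). Perilipin 2 (PLIN2), the coat protein of droplets in non-adipocytes and early adipocytes, was at 18.1, 19.1 and 18.5 FPKM in BF-0d, 203, 103 and 185 FPKM in BF-8d, 25.6, 23.6 and 22.3 FPKM in IMF-0d and 25.8, 24.03 and 23.2 FPKM in IMF-8d. The BF-8d libraries varied among themselves and all lay above the other 9. The interaction was -2.98 ± 0.27 (SE, adjusted p = 8.99e-06). HILPDA, an inhibitor of lipolysis that is itself induced by hypoxia, had an interaction of -1.77 ± 0.17 (SE, adjusted p = 1.57e-05). ACSL4, which activates long-chain fatty acids, rose in both depots and more in BF (-1.68). LPL rose by 6.98 in BF and 5.86 in IMF, and its interaction of -1.11 ± 0.35 (SE, adjusted p = 0.0359) was not called. The 13 genes of triglyceride assembly had 0 called interactions by limma, 6 of them with an unadjusted p under 0.05, and a median of 0.26.

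Some of the most negative interactions outside the interferon-stimulated genes follow. Of these, HGF, EREG and TRPA1 were chosen after their values had been seen, from the most negative interactions that kept their call whichever library was left out. CSF2 (ENSSSCG00000023737, chr2:134354724-134357155), the growth factor of granulocytes and macrophages, was listed at 0 in all day 0 libraries, reached 51.1, 115 and 73.2 FPKM in BF-8d and was at 0.243, 0.09200 and 0 FPKM in IMF-8d. BF-8d alone was high, and the interaction was -6.11 ± 0.30 (SE, adjusted p = 7.81e-08). Hepatocyte growth factor (HGF) rose from 0.156, 0.161 and 0.129 to 96.3, 108 and 117 FPKM in BF and from 1.01, 1.34 and 0.8602 to 14.8, 10.3 and 9.13 FPKM in IMF. Both rises were called, the BF-8d libraries lay far above those of IMF-8d, and the interaction was -3.99 ± 0.22 (SE, adjusted p = 1.28e-07).

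The EGF receptor ligand epiregulin (EREG) reached a mean of 383 ± 133 FPKM in BF-8d and 21.97 ± 7.14 FPKM in IMF-8d, with an interaction of -3.89. Interstitial collagenase MMP1 rose from a mean of 1.44 ± 0.131 to 4283 ± 616 FPKM in BF and from 2.86 ± 0.611 to 448 ± 139.9 FPKM in IMF, with an interaction of -3.94 ± 0.27 (SE, adjusted p = 8.02e-07) that was lost in the fit of all 24 libraries. The cation channel TRPA1 was at a mean of 80.6 ± 19.1 FPKM in BF-8d and 2.62 ± 0.367 FPKM in IMF-8d, with an interaction of -4.04. EREG and TRPA1 averaged under 1 FPKM on day 0 in both depots.

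Of 17 matrix proteases and inhibitors, 4 were called positive and 5 negative (3 and 2 in the fit of all 24 libraries), against 3.84% and 2.65% over all genes. The tissue plasminogen activator PLAT, which starts the breakdown of fibrin, changed in opposite directions in the depots, with net changes of -1.45 ± 0.09 in BF and 1.04 ± 0.09 in IMF and an interaction of 2.5 ± 0.13 (SE, adjusted p = 1.23e-07). The metalloproteinase inhibitor TIMP3 had an interaction of -2.96.

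Of 17 chemokines and cytokines tested, 11 rose in BF and 8 in IMF, and 6 had a called negative interaction (9 if BF-8d replicate 1 was left out, and 1, CSF2, if all 24 libraries were fitted). Over all genes 6% rose in BF, 4.6% rose in IMF and 2.65% had a called negative interaction. Interleukin 6 (IL6) rose from 3.91, 3.13 and 5.13 to 1313, 3289 and 2299.5 FPKM in BF and from 7.29, 5.73 and 6.79 to 842, 819 and 717 FPKM in IMF. Its lowest BF-8d library, replicate 1, still lay above all IMF-8d libraries, and the interaction was -2.04 ± 0.37 (SE, adjusted p = 0.00166). LIF, a cytokine of the IL6 family, had an interaction of -2.51 and the T cell chemoattractant CCL5 of -2.82. CSF3, the granulocyte growth factor, had an interaction of -3.31 ± 0.67 (SE, adjusted p = 0.0059), and its call held in 2 of the 12 leave-one-out fits. Of 10 immune cell markers 5 were tested and 0 had a called interaction by limma (2 at an unadjusted p under 0.05), with sums of 237 to 305 FPKM in BF-0d, 227 to 247 in BF-8d, 259 to 338 in IMF-0d and 277 to 372 in IMF-8d.

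CYP26B1 (ENSSSCG00000008311), which breaks down retinoic acid, an inhibitor of adipogenesis, rose from 0.864, 1.11 and 1.23 to 129, 129 and 145 FPKM in BF and from 2.09, 2.25 and 1.76 to 9.64, 10.1 and 8.81 FPKM in IMF. It started slightly higher in IMF and ended far higher in BF, with an interaction of -4.24 ± 0.15 (SE, adjusted p = 3.47e-09). Of 16 retinoid genes tested, 3 were called positive and 2 negative, against 3.84% and 2.65% over all genes, with a median of -0.33. Besides CYP26B1, the retinoic acid receptor RARA (-1.15) was called negative. The positive ones were the retinol transporter STRA6 (1.51), ALDH1A3 (1.33), which makes retinoic acid, and RDH10 (1.07), which makes its precursor. The calls of ALDH1A3 and RDH10 were lost in 5 and 1 of the 12 leave-one-out fits, and the list had 1 positive call without IMF-0d replicate 1.

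Antioxidant genes were called in both directions. Of 18 tested, 5 were called negative and 3 positive, against 2.65% and 3.84% over all genes, 10 were not called, and the median was 0.04. The positive count was 5 without IMF-0d replicate 3 or without IMF-8d replicate 2. The quinone reductase NQO1 rose from 8.42, 10.6 and 11.11 to 59.8, 83.9 and 87.1 FPKM in BF and was at 14.7, 14.8 and 15.8 FPKM in IMF-0d and 22.1, 18.7 and 17.6 FPKM in IMF-8d. BF-8d stood apart from the other 9 libraries, with an interaction of -2.47 ± 0.21 (SE, adjusted p = 4.79e-06). The cystine transporter SLC7A11 had an interaction of -2.43, the rate-limiting glutathione enzyme GCLC of -1.74, peroxiredoxin PRDX1 of -1.62 and thioredoxin reductase TXNRD1 of -1.57. The positive ones were mitochondrial superoxide dismutase SOD2 (2.03), GPX7 (1.15) of the endoplasmic reticulum and the peroxisomal enzyme catalase CAT (1.15). SOD2 rose in both depots from a lower start in IMF, from a mean of 312 to 1231 FPKM in BF and from 84.3 to 1383 FPKM in IMF.

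The core of the antioxidant response element, TGACNNNGC on either strand, lay within 250 bases upstream of the start in 3 of the 16 antioxidant genes with a RefSeq promoter, 2 of them (NQO1 and GCLC) among the 8 called, and in 9.94% of all promoters. The windows of NQO1 (chr6:17292712-17292961, plus strand) and GCLC (chr7:27209315-27209564, plus strand) follow because both genes have called negative interactions, with the match in capitals, 210 and 182 bases upstream of the start.
NQO1: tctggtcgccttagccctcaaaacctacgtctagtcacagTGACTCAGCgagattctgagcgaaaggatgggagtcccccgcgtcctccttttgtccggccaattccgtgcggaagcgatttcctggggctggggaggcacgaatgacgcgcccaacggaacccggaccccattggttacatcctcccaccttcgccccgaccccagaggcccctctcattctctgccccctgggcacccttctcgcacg
GCLC: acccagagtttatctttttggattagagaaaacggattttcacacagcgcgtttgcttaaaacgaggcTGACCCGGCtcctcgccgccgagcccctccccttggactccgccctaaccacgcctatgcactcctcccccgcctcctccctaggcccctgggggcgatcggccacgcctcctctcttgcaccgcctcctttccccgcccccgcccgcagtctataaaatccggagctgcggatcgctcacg

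Interferon-stimulated genes had the most negative list median, -3.97, and the most variable libraries. Of 25 tested, 8 were called, all negative (2.65% over all genes), and 20 had an unadjusted p under 0.05. The count was 23 without BF-8d replicate 1, 10 without BF-8d replicate 2, and 0 or 1 without any single one of the other 10 libraries. It was 18 with all 24 libraries fitted, and 1 when the replicate number, which no source ties to a piglet, was fitted as a block. The ubiquitin-like modifier ISG15 was at 21.1, 6.98 and 9.59 FPKM in BF-0d, 90.5, 2764 and 1111 FPKM in BF-8d, 188, 204 and 376 FPKM in IMF-0d and 90.5, 52.8 and 60.2 FPKM in IMF-8d. Replicates 2 and 3 of BF-8d were far above all other libraries and replicate 1 was near the highest IMF-8d library. All IMF-0d libraries were above all BF-0d libraries. The translation inhibitor IFIT1 was at 11.3, 6.45 and 7.15 FPKM in BF-0d, 38.6, 1289.7 and 476 FPKM in BF-8d, 97.4, 92.7 and 119.5 FPKM in IMF-0d and 16.8, 13.9 and 10.2 FPKM in IMF-8d. Again BF-8d replicates 2 and 3 stood above all others, and replicate 1 lay between IMF-8d and IMF-0d. Interactions were -7.60 ± 1.51 (SE, adjusted p = 0.0068) for ISG15 and -7.85 ± 1.46 (SE, adjusted p = 0.00486) for IFIT1. The calls of IFIT1, MX2, ISG15, IFIT2, OAS2, MX1 and IFI44 held in 2 of the 12 leave-one-out fits, those without BF-8d replicate 1 and without BF-8d replicate 2.

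Relative to the mean of BF-0d, the median of the 25 genes was 0.71 (log2) in BF-8d replicate 1, 4.18 in replicate 2 and 3.23 in replicate 3. It was 1.89 to 2.53 in the IMF-0d libraries and 0.30 to 0.71 in those of IMF-8d. By this median the 3 libraries of IMF-8d lay below those of IMF-0d, while BF-8d replicate 1 lay apart from replicates 2 and 3.

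**Figure D4:**
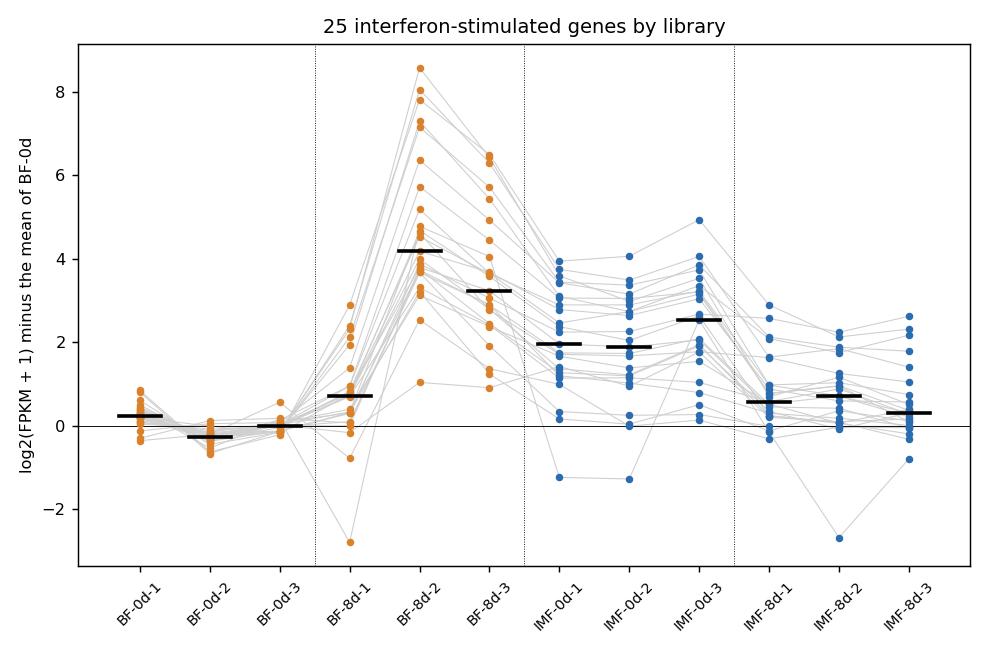
log2(FPKM + 1) of 25 interferon-stimulated genes minus their mean in BF-0d (y axis) in each of the 12 libraries (x axis), with lines joining a gene and black bars for the median of the library. The median is 4.18 and 3.23 in BF-8d replicates 2 and 3 and 0.71 in BF-8d replicate 1.

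The interferon-stimulated response element, spelled here GAAANNGAAA on either strand, lay within 250 bases upstream of the start in 9 of 21 of these genes with a RefSeq promoter, 2 of them among the 7 called, and in 2.98% of all promoters. The windows of ISG15 (chr6:63362951-63363200, plus strand) and OAS2 (chr14:38847698-38847947, minus strand) are printed because these 2 called genes hold the element, with matches in capitals. ISG15 has 3 matches that begin 134, 128 and 108 bases upstream of the start, the first of which overlaps the next, and OAS2 has 1 at 18 bases.
ISG15: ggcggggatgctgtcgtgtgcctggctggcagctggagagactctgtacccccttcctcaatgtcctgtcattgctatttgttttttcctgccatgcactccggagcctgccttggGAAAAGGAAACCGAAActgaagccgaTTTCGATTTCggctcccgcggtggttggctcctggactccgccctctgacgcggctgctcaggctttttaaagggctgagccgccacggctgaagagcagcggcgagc
OAS2: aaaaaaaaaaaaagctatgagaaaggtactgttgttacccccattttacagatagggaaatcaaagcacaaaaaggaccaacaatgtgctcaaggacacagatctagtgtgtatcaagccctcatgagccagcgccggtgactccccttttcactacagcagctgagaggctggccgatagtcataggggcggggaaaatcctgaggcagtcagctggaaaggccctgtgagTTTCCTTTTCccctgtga

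Of 16 adipogenic transcription factors, GATA2 and KLF15 were called, both positive (12.5%, against 3.84% positive over all genes). KLF15, which acts late in adipogenesis, rose from a mean of 1.35 ± 0.173 to 5.69 ± 0.488 FPKM in IMF and was at 4.18 ± 0.338 and 4.57 ± 0.778 FPKM in BF, with an interaction of 1.41 ± 0.17 (SE, adjusted p = 6.28e-05). GATA2, a factor that holds cells in the preadipocyte state, had an interaction of 1.46 that was lost in the fit of all 24 libraries. PPARG, the master regulator, fell by 1.04 in BF from a mean of 3.003 FPKM and was under 1 FPKM in all IMF libraries on days 0 and 8, and its interaction of 0.88 ± 0.22 (SE, adjusted p = 0.0113) was not called. CEBPA, which acts with PPARG, averaged 2.35 FPKM in BF-8d and 1.76 FPKM in IMF-8d, with an interaction of -0.05 ± 0.18 (SE, adjusted p = 0.885). FABP4, a fatty acid carrier, was at 5.996, 1.73 and 2.68 FPKM in BF-8d and 0.3004, 0.236 and 0.676 FPKM in IMF-8d and was listed at 0 in IMF-0d. Its interaction of 0.02 ± 0.36 (SE, adjusted p = 0.977) changed sign with the scaling. Of the 12 adipocyte markers, 7 were tested and 0 had a called interaction by limma (3 at an unadjusted p under 0.05), with sums of 20.8 to 24.1 FPKM in BF-0d, 519 to 889 in BF-8d, 5.94 to 6.47 in IMF-0d and 132 to 166 in IMF-8d, of which most on day 8 was LPL and CFD. CFD went from 9.98, 10.9 and 11.6 to 267, 237 and 336 FPKM in BF and from 1.17, 1.17 and 1.67 to 35.6, 21.1 and 33.5 FPKM in IMF. It rose in both depots to heights that did not overlap, and its interaction of -0.86 ± 0.26 (SE, adjusted p = 0.03) was not called.

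Of 16 of the study's candidate genes followed here, 6 had a called interaction, against 6.49% of all genes. The study drew up its longer list, which also holds HGF, from these libraries, so the count is not independent evidence. Besides CYP26B1, IGF1 and CAT these were FGF2, GLA and SHC3. The mitogen FGF2 was at 30.7, 33.6 and 33.3 FPKM in BF-0d and 51.4, 52.6 and 54.5 FPKM in BF-8d, and rose from 34.2, 42.5 and 26.4 to 183, 249 and 165 FPKM in IMF. The IMF-8d libraries stood above all others and the interaction was 1.82 ± 0.24 (SE, adjusted p = 0.000151). GLA, the lysosomal alpha-galactosidase, rose from 4.88, 6.12 and 6.197 to 14.4, 11.02 and 13.8 FPKM in BF and from 5.796, 5.76 and 5.84 to 46.5, 49.3 and 52.3 FPKM in IMF. The depots were alike on day 0 and apart on day 8, with an interaction of 1.82 ± 0.16 (SE, adjusted p = 7.88e-06). Catalase was at 32.1, 31.96 and 32.7 FPKM in BF-0d, 35.5, 26.02 and 35.4 FPKM in BF-8d, 25.04, 25.3 and 21.8 FPKM in IMF-0d and 49.2, 57.8 and 55.3 FPKM in IMF-8d. The IMF-8d libraries were above the other 9, the interaction was 1.15 ± 0.17 (SE, adjusted p = 0.000468), and that call was lost in the fit of all 24 libraries. The adaptor SHC3, with at most 2.54 FPKM in any library, was still called in 6 of the 12 leave-one-out fits.

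Others of the 16 did not pass the test. PCK1, the entry enzyme of glyceroneogenesis, had net changes of 5.31 ± 0.29 in BF and 6.37 ± 0.29 in IMF, with an interaction of 1.06 ± 0.41 (SE, adjusted p = 0.0809). Angiotensinogen (AGT) rose by 4.49 in BF and 3.55 in IMF. Its interaction of -0.94 ± 0.19 (SE, adjusted p = 0.00279) fell short of a log2 difference of 1 and passed it under median ratio scaling (-1.04) and quantile normalization (-1.02). For glycerol kinase (GK), SOAT1, ENO2, COX4I2, CACNG7 and THSD7A, the interactions lay between -0.97 (ENO2) and 0.81 (COX4I2).

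Cholesterol synthesis and uptake genes fell in both depots, 17 of 20 in BF and 13 of 20 in IMF (7.44% and 4.51% of all genes fell), and 6 had a called positive interaction (3.84% over all genes), among them the sterol demethylase CYP51A1 (1.61). CYP51A1 was at 9.19, 5.14 and 7.52 FPKM in BF-8d and 20.1, 21.1 and 17.4 FPKM in IMF-8d, from means of 65.3 and 53.8 FPKM on day 0. All BF-8d libraries lay under those of IMF-8d. Cell cycle and replication genes fell for 9 of 22 in BF and 14 of 22 in IMF, with 0 called interactions by limma (10 at an unadjusted p under 0.05) and a median of -0.31. Cytosolic ribosomal proteins had 22 of 22 estimates above 0, a median of 0.44 and 0 calls by limma (14 at an unadjusted p under 0.05). Among 24 HOX and other positional genes, which keep a memory of body site, 3 were called positive (HOXD8 1.70, IRX3 1.19 and HOXA5 1.10) and 0 negative, against 3.84% and 2.65% over all genes. The positive count was 5 without BF-0d replicate 1, and 6 without IMF-8d replicate 2 or with a pseudocount of 0.1 or 0.5. In fatty acid synthesis FADS2 (1.5) and SCD (-1.31) were called out of 12. The FADS2 call held in 7 and the HOXA5 call in 10 of the 12 leave-one-out fits. The next list counts are small and stand against 3.84% positive and 2.65% negative over all genes. Of 14 p53 targets and CDK inhibitors 2 were called positive and 1 negative, of 6 renin-angiotensin genes 2 were positive (ACE 2.13 and ANPEP 1.79; 3 positive and 1 negative without IMF-0d replicate 2), and of 11 prostaglandin genes 1 was positive and 1 negative (1 and 3 without BF-8d replicate 1, and 1 and 2 without IMF-8d replicate 2). The p53 list had 1 positive call in 5 of the 12 leave-one-out fits. Of 9 stromal progenitor markers 1 was called (NT5E, -1.31). That list had 3 positive calls and 1 negative with a pseudocount of 0.1. It had 1 and 1 without BF-0d replicate 1, IMF-0d replicate 2, IMF-0d replicate 3 or IMF-8d replicate 1. Of 4 endothelial markers 1 was called (PECAM1, 1.08, a call lost without BF-8d replicate 1 and without IMF-0d replicate 1).

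Opposite changes, and depot differences called on day 0 alone, were the less frequent forms of a called interaction. Of the 9 genes with called changes in opposite directions, C1QTNF2, a secreted relative of adiponectin, fell from 7.23, 8.82 and 9.73 to 1.69, 1.98 and 1.76 FPKM in BF and rose from 7.07, 7.93 and 8.998 to 24.9, 21.8 and 30.4 FPKM in IMF. The depots overlapped on day 0 and were apart on day 8, with an interaction of 3.33 ± 0.19 (SE, adjusted p = 2.38e-07). Tenomodulin (TNMD), a membrane protein of tendon, fell from 2.79, 3.08 and 2.64 to 0.124, 0.548 and 0.213 FPKM in BF and rose from 0, 0.388 and 0.284 to 1.47, 1.999 and 1.82 FPKM in IMF. The depots exchanged places at low levels, with an interaction of 2.76 ± 0.20 (SE, adjusted p = 1.65e-06). SOCS3, a feedback inhibitor of cytokine signalling, rose from 6.87, 6.63 and 7.77 to 16.3, 24.5 and 20.2 FPKM in BF and fell from 28.8, 23.9 and 30.9 to 10.1, 9.69 and 11.7 FPKM in IMF, with an interaction of -2.70 ± 0.20 (SE, adjusted p = 1.94e-06). The depots were apart on day 0 and apart the other way on day 8, where the difference was not called.

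For 120 genes with a called interaction, the depot difference was called on day 0 and not on day 8. Of these, 64 were lower in IMF on day 0 and 56 higher. MASP1 above is an example. NAAA, a lysosomal hydrolase of lipid amides, went from a mean of 16.9 ± 1.34 to 0.652 ± 0.138 FPKM in BF and from 2.35 ± 0.335 to 1.503 ± 0.0365 FPKM in IMF, with an interaction of 3.03 ± 0.15 (SE, adjusted p = 7.85e-08). The integrin relative ITGBL1 fell from 75.1 ± 6.83 to 3.07 ± 0.3203 FPKM in BF and from 18.9 ± 3.28 to 6.72 ± 0.259 FPKM in IMF, with an interaction of 2.87 ± 0.18 (SE, adjusted p = 3.46e-07). Both were higher in BF than in IMF before induction, and on day 8 their means were higher in IMF, a difference that was not called. In the other direction, SLC16A3 was at a mean of 3.09 ± 0.0514 FPKM in BF-0d and 15.96 ± 2.95 FPKM in IMF-0d, and at 125 ± 9.11 and 83.4 ± 16.4 FPKM on day 8. PSME2, an activator of the proteasome, had an interaction of -2.48 ± 0.40 (SE, adjusted p = 0.000841).

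The larger group was the 590 genes whose depot difference was called on day 8 and not on day 0, 351 higher in IMF and 239 lower. The 12 libraries of days 2 and 4 entered the choice of these genes only through the filter on FPKM summed over the 24 libraries. They were fitted separately, a step chosen after the values of days 0 and 8 had been seen. Of the 351 genes, 17 (4.84%) were called higher in IMF on day 2 and 139 (39.6%) on day 4, against 1.78% and 6.25% of all genes (10.4% were called in either direction on day 4), and 28 were called lower on day 4. Of the 239 genes, 7 (2.93%) were called lower in IMF on day 2 and 117 (49.0%) on day 4, against 0.837% and 4.16% of all genes. Between days 0 and 8 the path varied by gene. ACTA2 averaged 15.2 FPKM in BF and 1126 FPKM in IMF on day 4, and CYP26B1 35.3 and 1.38 FPKM, so both were apart by then. PENK averaged 4.78 FPKM in BF and 3.36 FPKM in IMF on day 4. RGS5 averaged 32.6 FPKM in BF and 4.75 FPKM in IMF on day 4, and GLA 19.6 and 5.52 FPKM, the reverse of their order on day 8. IGF1 averaged 188 FPKM in BF on day 4 and 43.7 FPKM on day 8, a course that the net change does not show. On the same scale PCK1 averaged 366 FPKM in BF and 0.141 FPKM in IMF on day 2.

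**Figure D5:**
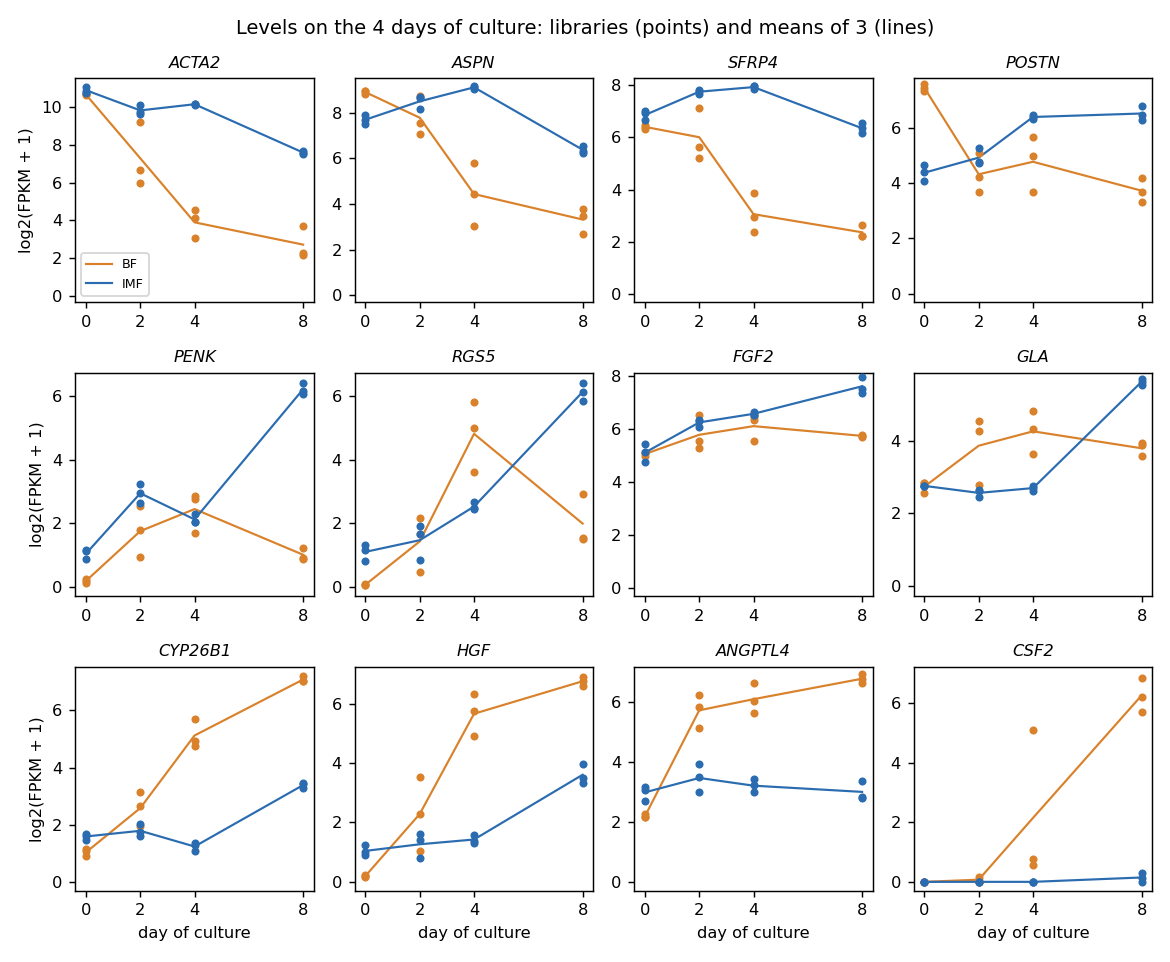
log2(FPKM + 1) of 12 genes on days 0, 2, 4 and 8 (x axis) in BF (orange) and IMF (blue), with a point per library and lines through the means of 3. ACTA2, ASPN, SFRP4 and CYP26B1 were apart on day 4, whereas PENK, RGS5 and GLA had lower means in IMF than in BF on day 4 and higher means on day 8.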

How the data were processed

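Polyadenylated RNA of 24 libraries was sequenced by the authors, who aligned the reads with HISAT2 to Sscrofa11.1 (Ensembl annotation) and quantified genes with StringTie 1.3.4d (version per the submitters' processing notes). The deposited values are FPKM, so gene length and library size had been divided out by the authors and the read depth of a library is unknown. FPKM totals were 307967 to 379163 in the 12 libraries used, and 10311 to 10858 genes per library reached 1 FPKM. A large change in a few abundant genes shifts the FPKM of all others, which is why other scalings were tried. The authors called genes with DESeq2 1.6.3, a test of counts that FPKM do not allow, and limma was used with the same thresholds.

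From these values, log2(FPKM + 1) was fitted with limma 3.58.1 in R 4.3.3 (1 mean per group, 12 libraries, 8 residual degrees of freedom, eBayes with trend and robust), after a filter of a sum above 1 FPKM over the 24 libraries (16135 of 25462 genes). The interaction, both net changes and the depot difference on day 0 and on day 8 were contrasts of that fit, adjusted over all genes tested. On simulated data with the same genes, 82 of 100 interactions of 1.5 and 97 of 100 of 3 (log2) were recovered, with 0 false calls. The changed genes were drawn from those with a group mean above 3 on log2(FPKM + 1). Noise was normal and independent for each gene. These rates therefore do not cover genes with lower values, or libraries such as BF-8d replicate 1 in which many genes deviate together. Alternatives were pseudocounts of 0.1 and 0.5, no filter, a filter at a mean of 1 FPKM in a group, median ratio and quantile scaling, all 24 libraries, plain eBayes, a replicate block and leaving out each library. Symbols were matched for 14816 of 21271 Ensembl IDs.

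The comparison, the 38 gene lists (516 genes tested) and the tests were chosen with earlier results of these data known. Named genes were 16 of the study's candidates and 4 adipocyte genes, and the rest were picked from called interactions. With a symbol and a mean of at least 5 FPKM in a group, the 8 most positive and 8 most negative were taken. Added to these were 3 per direction with opposite net changes (or fewer) and the 2 largest per list. The last were 3 per direction with a depot difference called on day 0 and, on day 8, not called and under 1. Genes named beyond the rule are other list members or are said to be chosen after their values were seen. Promoter windows were 250 bases before the RefSeq gene start. The values of some named genes and windows are not reported here.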

Additional observations from a re-analysis of the deposited data

Results flagged for a closer look

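The net change from day 0 to day 8 differed between depots in a test of the difference itself for 1047 genes (6.49%). Apart from the study's candidates and the adipocyte genes, the named genes were picked because their interaction had been called. Of the 87 named genes tested, 75 were called, most of them through this choice, so their share is not a separate result. Of those 75, 65 kept their call whichever of the 12 libraries was left out.

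The values that follow are those of genes named by the rule given with the processing, and other genes also had called interactions of these sizes. Among the positive interactions of these genes (log2, IMF minus BF), the values above 3 were 5.86 for POSTN, 4.63 for ACTA2, 4.35 for PENK, 4.27 for ASPN, 3.90 for MGP, 3.87 for TAGLN, 3.86 for MFAP5, 3.80 for RASL11B, 3.53 for SFRP4, 3.33 for C1QTNF2, 3.28 for MASP1, 3.11 for RGS5 and 3.03 for NAAA. Between 2 and 3 they were 2.88 for NR4A1, 2.87 for ITGBL1, 2.76 for TNMD, 2.74 for SFRP2, 2.70 for CCN2, 2.64 for COL14A1, 2.60 for OGN, 2.59 for SESN1, 2.55 for IGFBP7, 2.48 for CFB, 2.43 for IGFBP4, 2.13 for ACE, 2.09 for THBS4 and 2.01 for HSD11B1. Between 1 and 2 they were 1.89 for CCN1, 1.82 for GLA, 1.82 for FGF2, 1.82 for PTGFR, 1.79 for ANPEP, 1.70 for HOXD8, 1.61 for ABCC9, 1.61 for CYP51A1, 1.51 for STRA6, 1.5 for FADS2, 1.46 for GATA2, 1.41 for KLF15, 1.41 for HSD17B7, 1.36 for IGF1, 1.19 for IRX3, 1.15 for CAT, 1.08 for PECAM1 and 1.01 for SHC3.

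Among the negative interactions of the same genes, the values beyond -4 were -7.85 for IFIT1, -7.71 for MX2, -7.60 for ISG15, -7.19 for IFIT2, -6.11 for CSF2, -5.09 for OAS2, -5.02 for MX1, -4.57 for ANGPTL4 and -4.24 for CYP26B1. Between -4 and -2 they were -3.94 for MMP1, -3.31 for CSF3, -2.98 for PLIN2, -2.76 for TGFB2, -2.70 for SOCS3, -2.63 for SLC16A3, -2.62 for VEGFA, -2.48 for PSME2, -2.47 for NQO1 and -2.43 for SLC7A11. Between -2 and -1 they were -1.86 for GDF15, -1.77 for HILPDA, -1.73 for CDKN2B, -1.68 for ACSL4, -1.60 for COL5A3, -1.54 for HK2, -1.39 for DES, -1.31 for NT5E, -1.31 for SCD and -1.08 for PTGS1.

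The 10 calls lost when at least 1 library was left out were those of IFIT1, MX2, ISG15, IFIT2, OAS2, MX1, CSF3, FADS2, SHC3 and PECAM1. Single outlying libraries were not tested for in groups of 3.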

How the results depend on the processing

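The number of called interactions stayed within 1.5 times the 1047 reported under each alternative, from 804 (461 positive, 343 negative) with all 24 libraries to 1500 (900 and 600) with a pseudocount of 0.1, and was 925 to 1368 when single libraries were left out. The highest, 1368 (673 positive and 695 negative), was without BF-8d replicate 1, where 1004 of the 1047 genes were still called. Of the 1047, 759 (72.5%) kept their call in all 12 fits that left out a library, 743 (71.0%) were called with all 24 libraries, and 3 changed sign under some alternative. With a pseudocount of 0.1 the called net changes were 4002 in BF (1759 risen, 2243 fallen) and 2606 in IMF (1271 and 1335), and the depots differed at 909 genes on day 0 (610 higher in IMF, 299 lower) and 2334 on day 8 (1467 and 867). Scaling moved the median interaction of all genes by less than 0.1. Median ratio scaling moved the split of the BF net changes from 44.6% to 57.6% risen and that of the day 8 differences from 63.6% to 50.6% higher in IMF. The cause was not tested.

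Among named genes, DES changed sign with a pseudocount of 0.1 (0.57) and lost its call at 0.5, SHC3, OAS2, RGS5 and THBS4 lost theirs at 0.1, FADS2 without a filter and SHC3 under median ratio scaling, and FABP4 changed sign under median ratio scaling (-0.12) and quantile normalization (-0.16). Leaving out single libraries gave -0.28 to 0.40 for FABP4, -0.22 to 0.093 for SOAT1 and -0.14 to 0.081 for CEBPA, none of them called. In the fit of all 24 libraries 12 of the 87 named genes lost their call. With the replicate number as a block, 1045 interactions were called (622 positive and 423 negative), and IFIT1, MX2, ISG15, IFIT2, OAS2 and MX1 were the named genes that lost their call. No source ties a number to a piglet, and 4 of 18 same-numbered pairs of libraries correlated above 0.1 (range -0.162 to 0.457), so the numbers were not taken to pair the libraries. The limits are 3 libraries per group, an unknown depth, and levels near 0 for which the pseudocount sets the size of a log2 difference.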
